A study of Mus musculus with 18 samples.

Results

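GABAergic interneurons are a small minority of striatal neurons, and the markers followed here are 9 genes by which their subtypes are told apart: Sst, Npy, Nos1, Cort, Pvalb, Lhx6, Nkx2-1, Th and Vip. They were taken by symbol from the 55421 genes of the count table, where each symbol matched 1 gene. Striatal RNA came from 5 WT mice, 5 zQ175 mice, 3 CK2α’(±) mice and 5 zQ175:CK2α’(±) mice. The mice were aged 12 to 14 months and labelled C57BL/6, with 1 library per mouse. Both sexes were in each group, but the WT and zQ175:CK2α’(±) mice were mostly female and the zQ175 and CK2α’(±) mice mostly male. The zQ175 allele, carried on 1 chromosome, is a knock-in of an expanded CAG repeat into the mouse huntingtin gene and models Huntington’s disease (HD). CK2α’(±) mice lack 1 allele of Csnk2a2, the gene of the CK2α’ kinase subunit, and zQ175:CK2α’(±) mice carry both changes. Both alleles act in every cell of the body from conception, so no group isolates interneurons. The CK2α’ line began on a mixed 129/SvEv and C57BL/6J background and was then bred for many generations with WT and zQ175 mice.

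Most striatal interneurons descend from the medial ganglionic eminence (MGE) of the embryo, where the transcription factor Nkx2-1 switches on Lhx6. One branch matures into fast-spiking cells that hold the calcium buffer parvalbumin (Pvalb) and inhibit striatal projection neurons close to the cell body. Another branch makes somatostatin (Sst), neuropeptide Y (Npy) and neuronal nitric oxide synthase (Nos1) in the same cells, and further, rarer interneurons express tyrosine hydroxylase (Th) or vasoactive intestinal peptide (Vip). In RNA from whole tissue, fewer cells of a type and less RNA per cell cannot be told apart.

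None of the 8 genes that could be tested differed between genotypes past the threshold in any of 6 comparisons, although Pvalb and Sst were lower on average in zQ175 mice than in WT mice. CPM stands for read counts relative to each library's total, corrected by edgeR's TMM factors. Each comparison was an edgeR quasi-likelihood test over 20914 genes, and a false discovery rate (FDR, the Benjamini-Hochberg adjusted p) under 0.1 was taken as passing. Cort had too few reads for the test.

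Total counts ranged from 13612381 to 22702547 per library. Csnk2a2 followed the labels, at 14.7 to 19.9 CPM where 1 CK2α’ allele was left (8 mice) and 29.4 to 37.5 CPM in the other 10 mice. Striatal projection neuron genes were abundant in every library, with a summed level of 1027 to 4787 CPM over 9 genes. Xist, which is made in females, was low in WT replicate 1 (0.498 CPM) and in zQ175 replicates 1 (4.55 CPM), 3 (47.0 CPM) and 5 (8.17 CPM). The other mice of these groups had 1024 CPM or more. A pair of zQ175 libraries stood apart. zQ175 replicate 1 held the highest level of all 4 thalamic genes examined (summed 1219 CPM, against at most 636 in any other library) and of 4 of 6 genes that accompany Th in catecholamine cells (43.0 CPM, against at most 11.3), and the lowest projection neuron sum. zQ175 replicate 5 held the highest level of 8 of 10 cortical excitatory neuron genes (398 CPM). Choroid plexus genes summed to 3032 CPM in zQ175:CK2α’(±) replicate 2, 2037 in WT replicate 1, 1702 in WT replicate 3 and 951 in CK2α’(±) replicate 1, and to at most 15.5 CPM in the other 14 libraries.

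**Figure D1:**
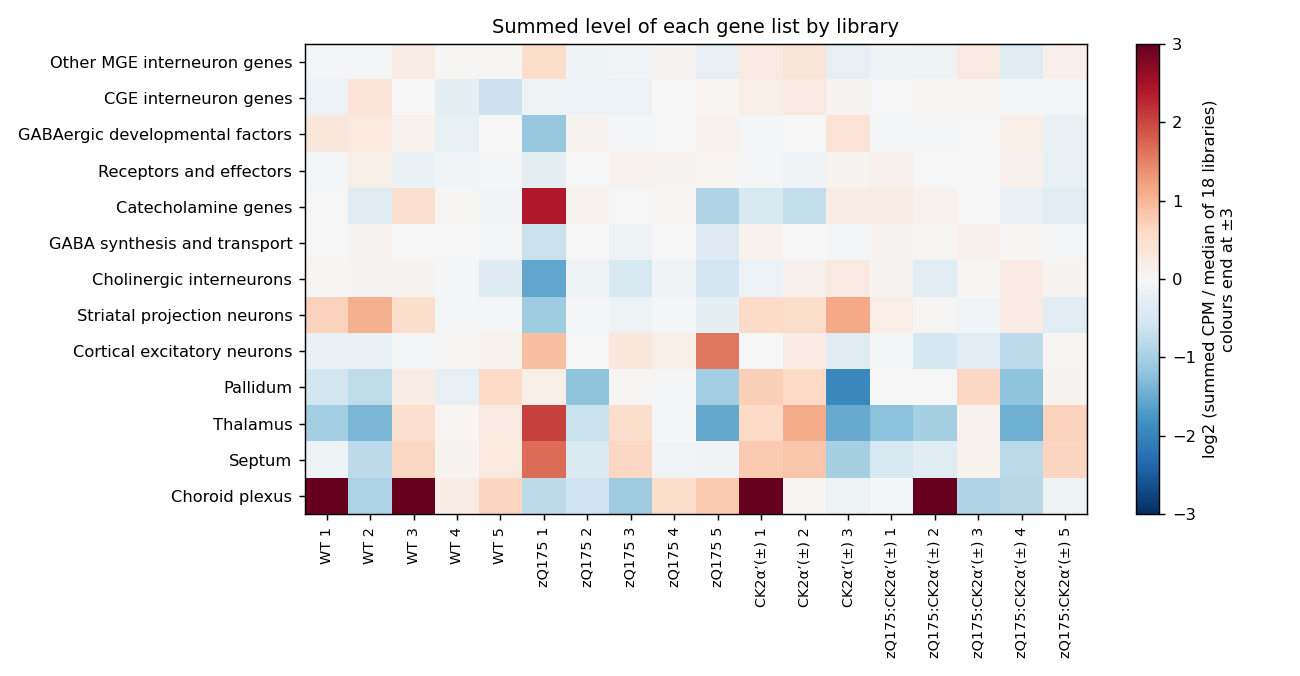
Summed CPM of each gene list (rows) in each of the 18 libraries (columns), as log2 of its ratio to the median of the 18 libraries, with colours ending at 3 in either direction. The thalamic and catecholamine sums are highest in zQ175 replicate 1 (1219 and 43.0 CPM), and the cortical excitatory sum is highest in zQ175 replicate 5 (398 CPM).

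Per length of exon, the 9 genes spanned more than 3 orders of magnitude in WT striatum. Mean WT levels, in CPM per kilobase of exon with SD over 5 mice, were 160 ± 21.2 for Sst, 52.6 ± 15.2 for Pvalb and 35.0 ± 6.89 for Npy. Nos1 followed at 6.45 ± 0.658, Lhx6 at 3.53 ± 1.15, Nkx2-1 at 2.06 ± 0.413 and Th at 1.77 ± 0.621 CPM per kilobase. Cort (0.531 ± 0.389) and Vip (0.113 ± 0.0853) closed the order. Sst exceeded Pvalb in 18 of 18 libraries, Npy exceeded Nos1 in 18 and Nos1 exceeded Lhx6 in 18, without overlap between the neighbours' WT values. Lhx6 also cleared Nkx2-1 in every WT mouse and in 17 of the 18 libraries. The remaining neighbours overlapped among WT mice, with Pvalb above Npy in 14 libraries, Nkx2-1 above Th in 15, Th above Cort in 17 and Cort above Vip in 14. Their places in the order are therefore not separated by the spread between mice.

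**Figure D2:**
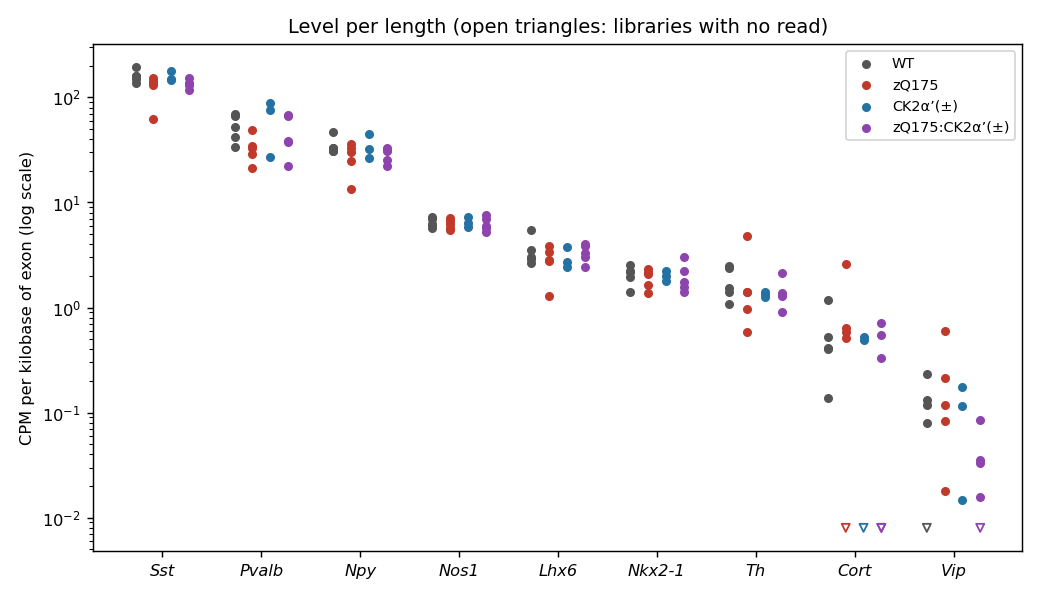
Level of each gene in CPM per kilobase of exon on a log axis, 1 point per library, coloured by genotype and ordered by the WT mean, with open triangles for libraries without a read. The points run from Sst (WT mean 160) down to Vip (WT mean 0.113), and the WT points of Pvalb and Npy overlap.

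Somatostatin is a peptide that inhibits release from nearby terminals, and its gene Sst (ENSMUSG00000004366, GRCm38 chromosome 16, 23889573 to 23890958, minus strand) was the highest of the 9 per length. In the WT mice, replicates 1 to 5, Sst measured 140, 99.9, 114, 115 and 107 CPM. In the zQ175 mice it measured 45.3, 104, 110, 93.8 and 100 CPM. Replicate 1, the library rich in thalamic and catecholamine genes, lay far below the other 4, and those 4 overlapped the WT range. Replicate 1 also had the lowest sums of the GABA synthesis and transport genes (752 CPM), cholinergic interneuron genes (25.4 CPM) and Dlx factors (22.6 CPM). Its sum of fast-spiking and other MGE interneuron genes was the highest of all libraries (758 CPM). The 3 CK2α’(±) mice had 107, 106 and 128 CPM of Sst, and the zQ175:CK2α’(±) mice had 110, 85.1, 99.1, 97.3 and 95.5 CPM. The groups overlapped in each comparison of a pair of genotypes. Sst was 0.35 lower on the log2 scale in zQ175 than in WT mice (log2 fold change -0.35, SE 0.160, adjusted p = 0.335). Its unadjusted p was under 0.05. The difference became -0.18 without zQ175 replicate 1 and ranged from -0.44 to -0.18 when each mouse was left out in turn.

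Npy (ENSMUSG00000029819, chromosome 6, 49822710 to 49829507, plus strand) encodes neuropeptide Y, a second inhibitory peptide of the Sst cells. Its levels were 26.7, 18.7, 17.5, 18.8 and 17.3 CPM in WT mice and 7.59, 17.3, 18.8, 14.1 and 20.4 CPM in zQ175 mice. In CK2α’(±) mice Npy stood at 15.1, 18.4 and 25.2 CPM, and zQ175:CK2α’(±) mice had 18.9, 12.6, 14.5, 17.5 and 17.8 CPM. WT replicate 1, one of the libraries rich in choroid plexus genes, was the highest of all and zQ175 replicate 1 the lowest, as for Sst, and all genotypes overlapped. The part of choroid plexus tissue in these values was not tested. The log2 fold change in zQ175 against WT was -0.34 (SE 0.207, adjusted p = 0.489), and -0.17 without zQ175 replicate 1.

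Nos1 (ENSMUSG00000029361, chromosome 5, 117781032 to 117958840, plus strand), the enzyme that makes nitric oxide in the same cells, was the steadiest of the markers. It measured 78.0, 80.8, 69.8, 67.6 and 63.2 CPM in WT mice and 63.6, 80.2, 61.3, 69.3 and 74.7 CPM in zQ175 mice. The CK2α’(±) mice gave 71.3, 65.6 and 80.5 CPM, and zQ175:CK2α’(±) mice had 84.7, 63.2, 58.0, 77.5 and 65.9 CPM. The ranges nearly coincided, and zQ175 replicate 1, low in Sst and Npy, was within the Nos1 range of the other mice. Nos1 gave the narrowest interval of the 8 tested genes, a log2 fold change of -0.04 in zQ175 against WT (95% interval -0.25 to 0.16, adjusted p = 0.899). With 1 mouse left out at a time the change ran from -0.11 (without zQ175 replicate 2) to -0.01 (without WT replicate 2). The gene shares 268 exon bases with the antisense gene Gm26995, and the strand setting of the counting is not given in the sources used here, so those reads cannot be assigned.

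Cort (ENSMUSG00000028971, chromosome 4, 149125034 to 149126763, minus strand) encodes cortistatin, a peptide related to somatostatin that is made mainly by cortical and hippocampal interneurons. It had 118 reads over all 18 libraries, none in 4 of them. The WT mice had 16, 5, 4, 8 and 2 reads and the zQ175 mice had 0, 6, 7, 6 and 33. There were 7, 0 and 5 reads in CK2α’(±) mice, and zQ175:CK2α’(±) mice had 4, 0, 0, 7 and 8. The 33 reads (1.77 CPM) came from zQ175 replicate 5, the library richest in cortical excitatory genes, and every other library had at most 0.797 CPM. Without a filter on low counts its adjusted p was 0.700 or more in all 6 comparisons. No difference between genotypes was detected for Cort.

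**Figure D3:**
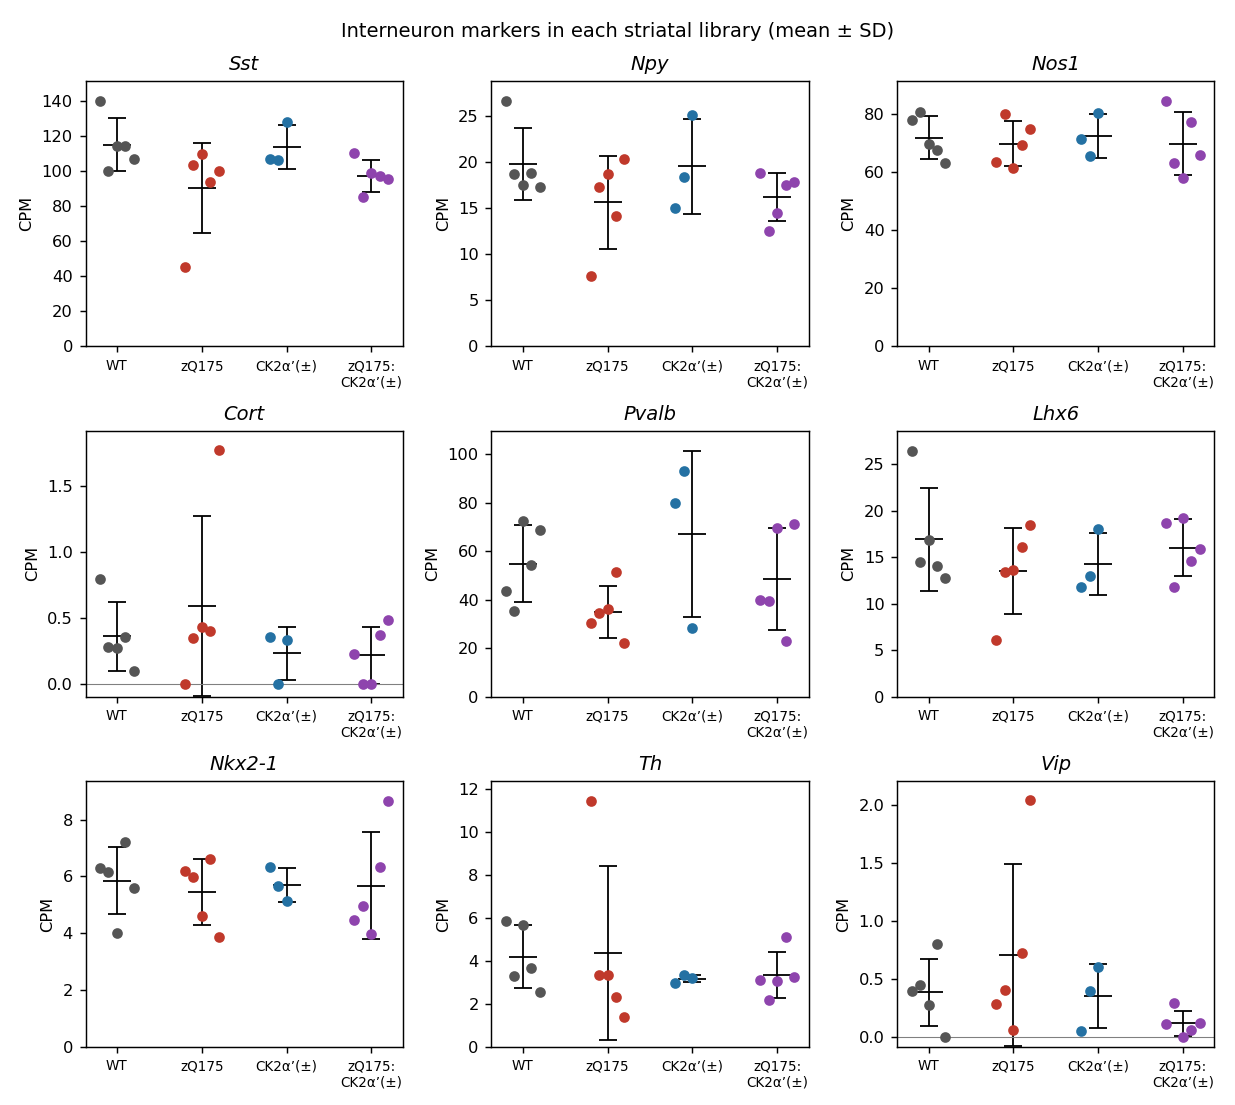
CPM of the 9 genes in each library, 1 panel per gene with its own linear axis, points in replicate order from left to right within a genotype, horizontal marks at the group mean and bars of 1 SD. Single zQ175 libraries set the extremes of several panels: replicate 1 for Sst (45.3 CPM) and Th (11.4 CPM), and replicate 5 for Cort (1.77 CPM) and Vip (2.04 CPM).

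Parvalbumin, the calcium buffer of fast-spiking cells, showed the largest fitted decrease in zQ175 mice among the abundant markers. Pvalb (ENSMUSG00000005716, chromosome 15, 78191114 to 78206400, minus strand) measured 43.5, 35.3, 72.2, 54.1 and 68.7 CPM in WT mice and 30.1, 34.4, 36.2, 51.4 and 22.1 CPM in zQ175 mice. Of the zQ175 mice, 3 lay below every WT mouse and the other 2 within the WT range. CK2α’(±) mice had 79.8, 93.1 and 28.4 CPM, and zQ175:CK2α’(±) mice had 39.8, 39.3, 69.3, 22.9 and 71.3 CPM. Each of these groups held mice above and below most WT values, so none separated. The log2 fold change in zQ175 against WT was -0.65 (SE 0.307, 95% interval -1.25 to -0.053, adjusted p = 0.348) and the ratio of levels was 0.636. The unadjusted p was again under 0.05. Without 1 mouse at a time the change ranged from -0.84 to -0.53, with adjusted p from 0.230 to 0.554.

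Pvalb varied between mice of a genotype far more than genes of its level usually did. Its biological coefficient of variation in edgeR was 33.4%, against a trend of 14.1% for genes of like abundance, while Nos1 had 12.4% against 13.4% and Sst 18.1% against 13.3%. CK2α’(±) replicate 3 had 28.4 CPM of Pvalb and also the lowest sum of the pallidal genes Npas1 and Kcng4 of all libraries (1.74 CPM), whereas CK2α’(±) replicate 1 had 79.8 CPM of Pvalb and the highest such sum (10.9 CPM). Kcng4 was at 0.4 CPM in CK2α’(±) replicate 3 and 8.89 CPM in replicate 1, with Npas1 at 1.33 and 2.02 CPM. Npas1 did not follow Pvalb at its extremes. CK2α’(±) replicate 2, highest in Pvalb (93.1 CPM), had 1.09 CPM of Npas1 and 8.84 CPM of Kcng4. zQ175 replicate 5, lowest in Pvalb (22.1 CPM), had 2.1 CPM of Npas1 and 1.13 CPM of Kcng4. Across the 18 libraries, Pearson's r of log2 CPM between Pvalb and the summed pallidal genes was 0.787. It was 0.652 with the summed fast-spiking and other MGE interneuron genes, 0.585 with the thalamic genes and 0.484 with the septal genes. Neither r with Kcng4 or Npas1 alone nor the part of neighbouring regions in the Pvalb values was tested.

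Lhx6 and Nkx2-1 are the developmental regulators of the MGE lineage. Lhx6 (ENSMUSG00000026890, chromosome 2, 36081953 to 36105408, minus strand), which stays on in mature Pvalb and Sst cells, measured 26.5, 14.5, 16.9, 14.0 and 12.8 CPM in WT mice and 6.14, 13.4, 13.6, 16.2 and 18.5 CPM in zQ175 mice. Lhx6 in CK2α’(±) mice was at 11.8, 12.9 and 18.1 CPM, and zQ175:CK2α’(±) mice had 18.7, 11.8, 19.2, 14.6 and 15.9 CPM. WT replicate 1 and zQ175 replicate 1 were again the highest and the lowest library, and the others intermingled. The log2 fold change in zQ175 against WT was -0.32 (SE 0.237, adjusted p = 0.585), and -0.12 without WT replicate 1. Lhx6 shares 104 exon bases with Gm27953, a small RNA gene on the same strand.

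Nkx2-1 (ENSMUSG00000001496, chromosome 12, 56531958 to 56536908, minus strand), which is retained in part of the adult striatal interneurons, measured 6.28, 6.14, 4.02, 7.20 and 5.61 CPM in WT mice. It measured 6.19, 5.97, 4.61, 6.59 and 3.87 CPM in zQ175 mice, 6.31, 5.64 and 5.14 CPM in CK2α’(±) mice and 4.45, 4.95, 3.98, 6.32 and 8.65 CPM in zQ175:CK2α’(±) mice. Unlike Sst, Npy and Lhx6, Nkx2-1 was not low in zQ175 replicate 1, and the 4 groups overlapped throughout. Its log2 fold change in zQ175 against WT was -0.11 (95% interval -0.53 to 0.32, adjusted p = 0.873), and it ranged from -0.21 without WT replicate 3 to -0.01 without zQ175 replicate 5.

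Th (ENSMUSG00000000214, chromosome 7, 142892752 to 142931128, minus strand) is the first enzyme of dopamine synthesis and marks a striatal interneuron class, but it is far more abundant in midbrain dopamine neurons. WT mice had 5.83, 3.30, 5.65, 3.64 and 2.55 CPM of Th, and zQ175 mice had 11.4, 3.36, 3.32, 2.31 and 1.40 CPM. CK2α’(±) mice had 2.98, 3.33 and 3.20 CPM, and zQ175:CK2α’(±) mice had 3.10, 2.15, 3.06, 5.10 and 3.25 CPM. zQ175 replicate 1 was the highest of all libraries, and the remaining zQ175 mice were in the lower part of the WT range or under it. Slc6a3, the dopamine transporter of midbrain dopamine neurons, had 362 reads (17.0 CPM) in zQ175 replicate 1 and at most 10 reads in any other library, and none in 8 of the libraries. The log2 fold change of Th in zQ175 against WT was 0.07 with all mice (SE 0.402, adjusted p = 0.960) and -0.69 without zQ175 replicate 1 (adjusted p = 0.358). The sign also turned without WT replicate 2 (-0.0113) and without WT replicate 5 (-0.0638). The part of dopamine neuron RNA in the values was not tested.

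Vip (ENSMUSG00000019772, chromosome 10, 5639218 to 5647617, plus strand) marks interneurons of the caudal ganglionic eminence (CGE), most of which lie in the cortex. It had 129 reads in all. WT mice had 8, 8, 4, 18 and 0 reads, and zQ175 mice had 6, 7, 1, 11 and 38. CK2α’(±) mice had 1, 9 and 9 reads, and zQ175:CK2α’(±) mice had 2, 4, 0, 1 and 2. Only 3 libraries held 10 reads or more, and the highest, zQ175 replicate 5 (2.04 CPM), was also the highest for Cort and for the cortical excitatory sum. Vip gave the largest log2 fold change of the 8 tested genes, 2.60 in zQ175 against zQ175:CK2α’(±) mice (SE 0.974, adjusted p = 0.646). Without zQ175 replicate 5 it was 1.66, and the change in zQ175 against WT went from 0.86 (adjusted p = 0.707) to -0.07.

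Set against the whole transcriptome, the count of markers called was 0 of 8 in each comparison, and DESeq2 with default settings also called 0. In zQ175 against WT, edgeR called 230 of 20914 genes (1.1%), and 13.9% of all genes had an unadjusted p under 0.05, as did 2 of the 8 markers (Pvalb and Sst). The count of genes edgeR called was 0 without WT replicate 3 or without zQ175 replicate 5 (2367 and 2566 genes had an unadjusted p under 0.05), 10 without WT replicate 1, 77 without zQ175 replicate 1, 133 without zQ175 replicate 3 and 587 without WT replicate 2. Of the 8 markers, 6 had a negative log2 fold change there (median -0.22), against 49.4% of all genes tested (median 0.0042). In zQ175:CK2α’(±) against WT, 3 genes were called (0.0143%), none of them a marker, and all 8 markers were negative (median -0.21), with 51.5% of all genes negative. No marker had an unadjusted p under 0.05 in that comparison, and the 2 comparisons share the WT mice. Pvalb was at -0.17 (SE 0.304, adjusted p = 0.922), Sst at -0.24 (SE 0.160, 0.694), Npy at -0.28 (SE 0.207, 0.735) and Vip at -1.74 (SE 0.983, 0.614). Npy became -0.17 without WT replicate 1, and Pvalb became 0.0063 without zQ175:CK2α’(±) replicate 4 and -0.35 without replicate 5.

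Loss of 1 CK2α’ allele was examined with and without the zQ175 allele. In zQ175 against zQ175:CK2α’(±), 0.0143% of genes were called, and of the markers Vip alone had an unadjusted p under 0.05. Pvalb was 0.48 lower in zQ175 (log2 fold change -0.48, 95% interval -1.08 to 0.12, adjusted p = 0.863), Sst was at -0.11 (95% interval -0.42 to 0.20, 0.950) and Th at 0.40 (95% interval -0.40 to 1.19, 0.924). Without zQ175 replicate 1, Sst and Th turned sign, to 0.0598 and -0.37, and without zQ175:CK2α’(±) replicate 5 Pvalb was at -0.30. In CK2α’(±) against WT, again 0.0143% of genes were called and every marker had an adjusted p of 0.999. Pvalb was at 0.30 (95% interval -0.38 to 0.98), a value that became -0.01 without CK2α’(±) replicate 2 and 0.66 without replicate 3. Sst was at -0.02 (95% interval -0.38 to 0.34). The intervals of Pvalb are wide enough to hold changes in either direction.

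With the zQ175 effect averaged over both CK2α’ genotypes, which uses all 18 mice, edgeR called 1024 genes (4.9%), none of them a marker. The count fell to 348 without CK2α’(±) replicate 3, 673 without CK2α’(±) replicate 2, 618 without WT replicate 3 and 678 without WT replicate 1. Pvalb was at -0.56 (SE 0.231, adjusted p = 0.220), Sst at -0.29 (SE 0.121, adjusted p = 0.236) and Npy at -0.30 (SE 0.157, adjusted p = 0.354), which became -0.19 without CK2α’(±) replicate 3. Of the 8 markers, 7 were negative (median -0.18), against 49% of all genes. Pvalb passed when genes with few reads were not filtered out (-0.57, adjusted p = 0.0590). The interaction between both genotypes called 1 gene (0.00478%), and none of the markers. Its largest marker estimates were -2.43 for Vip (SE 1.39, adjusted p = 0.916) and 0.50 for Lhx6 (SE 0.364, 0.936). They became -1.49 without zQ175 replicate 5 and 0.28 without WT replicate 1.

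**Figure D4:**
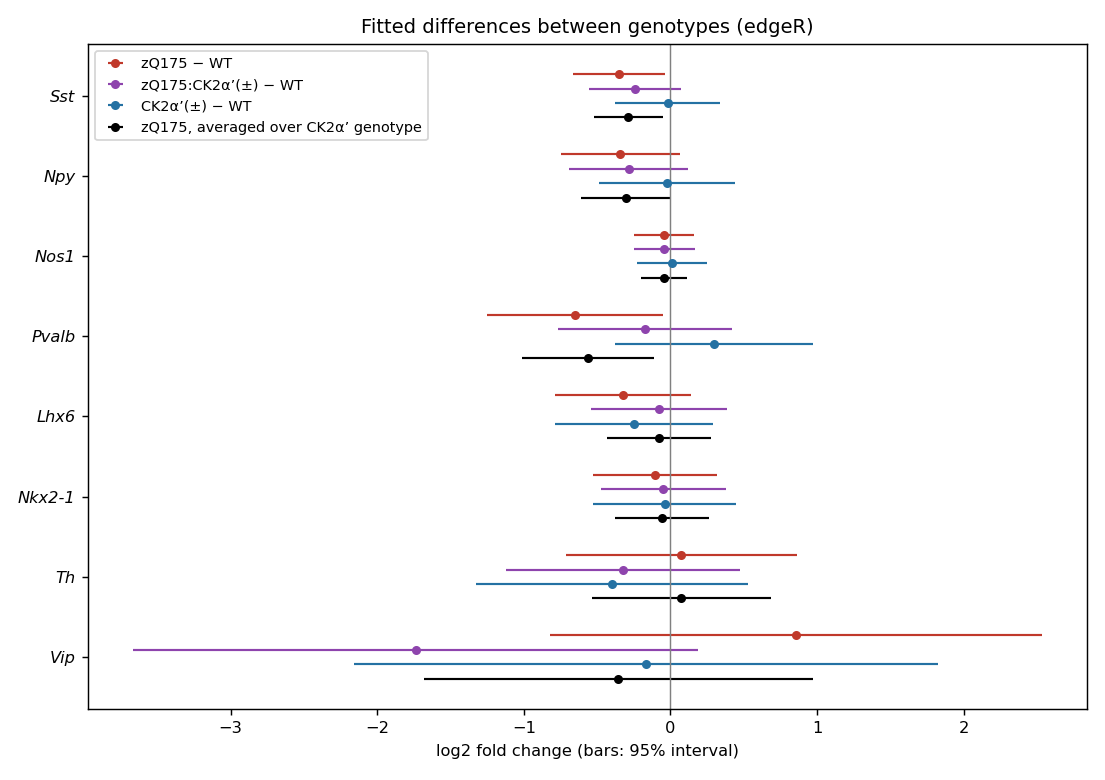
Log2 fold changes of the 8 tested genes in 4 comparisons, with bars of the 95% interval from the standard error. Nos1 has the shortest bars (-0.25 to 0.16 in zQ175 against WT) and Vip the longest, and the bars of Pvalb and Sst lie just below 0 in zQ175 against WT and in the averaged comparison, where neither gene passed FDR 0.1.

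The markers did not vary together as one group. Across the 18 libraries, Sst and Npy kept nearly the same proportion, with a ratio of CPM between 4.91 and 7.11, and Pearson's r of their log2 CPM was 0.922 (Spearman's rho 0.742). After removal of the group means it was 0.905. With the group means left in, r was 0.754 without the 2 libraries farthest from the median of Sst, zQ175 replicate 1 and WT replicate 1. Sst and Lhx6 had r = 0.818 (rho 0.354) and Npy and Lhx6 also r = 0.818 (rho 0.569), and without these 2 libraries the values were 0.239 and 0.386. Without zQ175 replicates 1 and 5 in their place, they were 0.590 and 0.588. After removal of the group means over all 18 libraries, these pairs had r = 0.868 (rho 0.847) and r = 0.860 (rho 0.775). Pvalb was nearly unrelated to Sst (r = 0.206, rho 0.166) and ran opposite to Nos1 (r = -0.474, rho -0.373, and r = -0.499 without the 2 farthest libraries). The libraries share their normalization and their dissected tissue among genes, so these values describe the libraries and carry no test.

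The genes most like each marker over the 18 libraries were picked by Pearson's r of log2 CPM. For Sst they were Npy, Dlx6 (0.896), a homeobox factor of GABAergic neurons, and Pkig (0.887), and for Npy they were Sst, Actl6b (0.886) and Dlx6 (0.870). Lhx6 was followed by Npy, Sst and Dlx5 (0.776). For Pvalb the nearest were Ermn (0.891), which encodes a cytoskeletal protein of myelinating oligodendrocytes, Ttyh2 (0.888) and Plekhh1 (0.881), and no interneuron gene was among them. Ermn kept r = 0.861 with Pvalb (rho over all libraries 0.915) without the 2 libraries at its extremes. Nos1 ran with 4930578M01Rik (0.783), Rbfox3 (0.776), the gene of the neuronal nuclear protein NeuN, and Mettl9 (0.768). Among the nearest genes were Dzank1 (0.805), Coro2a (0.798) and Gabbr1 (0.784) for Th, C230012O17Rik (0.776) and Gm24876 (0.749) for Vip, and Zfp472 (0.764), Foxr2 (0.759) and Gm43690 (0.747) for Nkx2-1. The r values of the 2 last markers stood on few reads or on genes of low level.

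**Figure D5:**
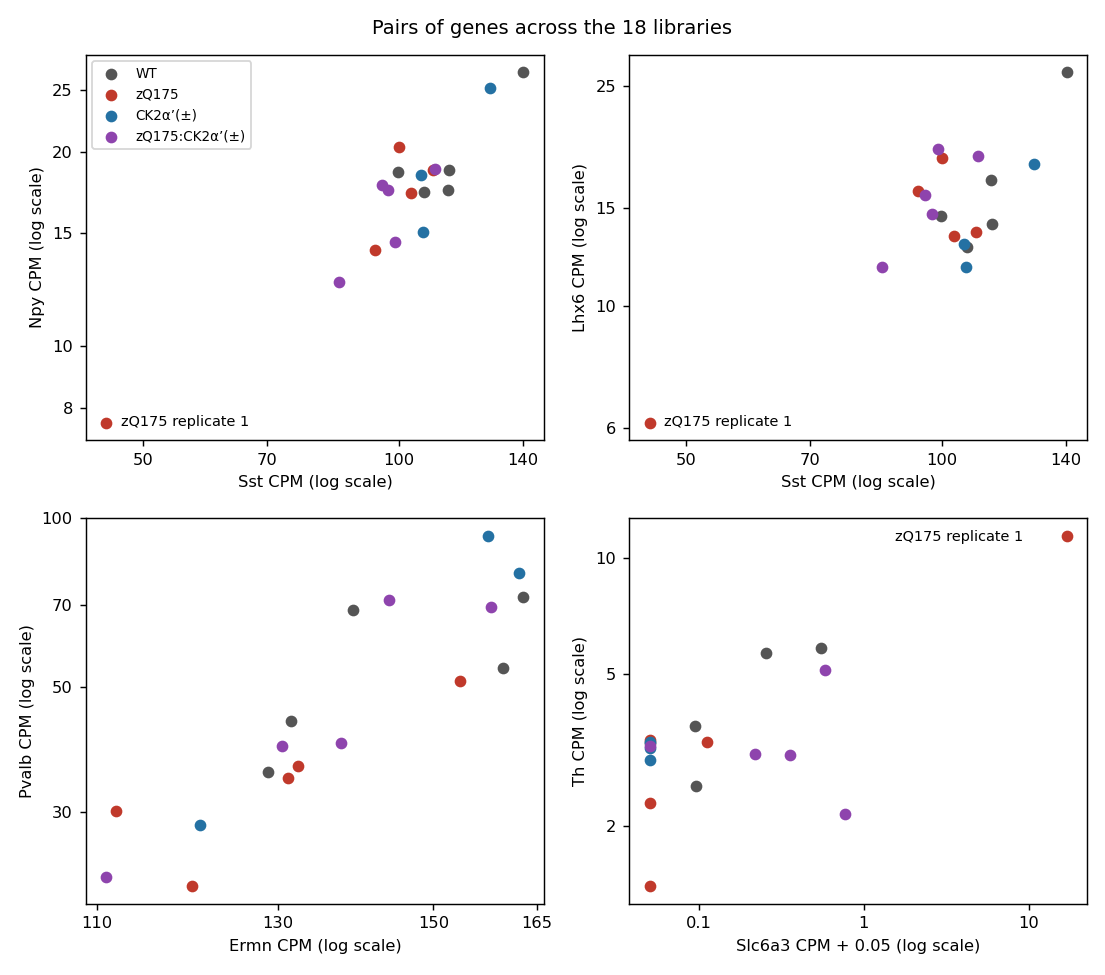
CPM of 4 pairs of genes on log axes, 1 point per library coloured by genotype, with 0.05 added to Slc6a3 so that libraries without a read can be drawn. Sst and Npy rise together (r = 0.922), Sst and Lhx6 do so less closely (r = 0.818, and 0.239 without the library at each end), Pvalb follows Ermn (r = 0.891), and zQ175 replicate 1 is alone at the top for Th (11.4 CPM) and Slc6a3 (17.0 CPM).

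Beyond the markers, 5 genes of the interneuron pathways passed in edgeR, all in the averaged comparison, where 4.9% of all genes did. Of 13 further MGE interneuron genes, 2 passed, in opposite directions. Syt2, a synaptotagmin of fast-spiking terminals, fell (-0.47, SE 0.141, adjusted p = 0.0831). Satb1, a factor needed for Sst interneurons to mature, rose (0.37, SE 0.106, adjusted p = 0.0675). Mean Satb1 was 22.6 CPM in WT, 31.7 in zQ175, 19.2 in CK2α’(±) and 22.8 in zQ175:CK2α’(±) mice. Of 9 CGE interneuron genes, 1 passed in the averaged comparison, Cnr1 (-0.96, SE 0.207, adjusted p = 0.0177). It encodes the CB1 cannabinoid receptor and is also made by projection neurons. Mean Cnr1 was 150 CPM in WT, 94.2 in zQ175, 248 in CK2α’(±) and 105 in zQ175:CK2α’(±) mice. Of 15 receptors and effectors of the markers' products, 2 rose: Sstr3, a somatostatin receptor (1.29, SE 0.361, adjusted p = 0.0622), and Nos1ap, an adaptor that binds the Nos1 enzyme (0.23, SE 0.0621, adjusted p = 0.0513). Without zQ175 replicates 1 and 5, Satb1 (0.27, adjusted p = 0.198) and Sstr3 (1.06, adjusted p = 0.166) no longer passed, while Syt2, Cnr1 and Nos1ap still did. These 3 each missed the threshold in at least 1 other fit: with the replicate number as a block the adjusted p was 0.187 for Syt2 and 0.128 for Nos1ap and just over the threshold for Cnr1, Satb1 also missed it (adjusted p = 0.133), and Syt2 missed it in the robust fit (adjusted p = 0.148). When each of the 18 mice was left out in turn, Cnr1 passed in 18 fits, Nos1ap in 15, Sstr3 in 14, Satb1 in 10 and Syt2 in 6. None of the 4 Dlx factors of GABAergic neurons, the 4 genes of GABA synthesis and transport, the 5 cholinergic interneuron genes or the 3 catecholamine genes tested passed, and in the 5 other comparisons no gene of any of these 7 lists passed.

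Projection neuron genes gave more calls than the interneuron markers. In zQ175 against WT, where 1.1% of all genes passed, 3 of 9 fell and none rose, Adora2a (-1.12, adjusted p = 0.0557), Penk (adjusted p = 0.0610) and Ppp1r1b (-0.85, 0.0765). They passed in 5 or 6 of 10 fits that left out 1 mouse. In the averaged comparison 7 of 9 fell (4.9% of all genes passed), led by Adora2a (-1.17, 0.00224), Penk (-1.02, 0.00318), Ppp1r1b (-0.77, 0.0128) and Rgs9 (-0.73, 0.0149). Without zQ175 replicates 1 and 5 the edgeR test called 0 genes of any kind in zQ175 against WT, with 2113 at an unadjusted p under 0.05, and 742 in the averaged comparison, where Adora2a (-1.12, adjusted p = 0.00555) and Penk (-0.91, 0.00688) still passed. Of 9 tested cortical excitatory genes, Tbr1 rose in zQ175 against WT (1.27, adjusted p = 0.0902) and Neurod2 in the averaged comparison (2.44, adjusted p = 0.0217), which passed in 3 of 10 and 18 of 18 such fits. The summed level of this list was 113 to 143 CPM in WT, 133 to 398 in zQ175, 102 to 156 in CK2α’(±) and 77.4 to 135 in zQ175:CK2α’(±) mice, and its part in the Vip and Cort values was not tested. No gene of the thalamic, pallidal, septal and choroid plexus lists passed in any comparison.

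The sequence just before the RefSeq start site of these genes was read for the cAMP response element, which was first described in the somatostatin gene, since it lets activity-driven kinases raise transcription in several of these neurons. The letters TGACGTCA stood in the 250 bases before that start in 2 of the 9 genes, Sst and Th, and in 1.55% of the 32851 mouse promoters in the RefSeq table (GRCm38.p6). The shorter TGACG, counted on both strands and contained in the full element, stood in those 2 and in Vip, Nos1 and Cort, and in 17.8% of all promoters. These 30-base windows, written 5′ to 3′ on the gene's strand with the element in capitals, show where the full element and the shorter one of Vip lie, at 48, 45 and 79 bases before the RefSeq start. For Sst, Th and Nos1 that start lies within the span that the GENCODE M21 annotation gives the gene, so the windows of Sst and Th are inside those spans.
Sst, chr16:23890874-23890903, minus strand: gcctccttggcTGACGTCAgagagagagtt
Th, chr7:142900022-142900051, minus strand: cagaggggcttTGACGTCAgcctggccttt
Vip, chr10:5639127-5639156, plus strand: ggatcactactgTGACGtctttcggggagc
A match is a description of letters and not of a working site. Sst and Npy, the pair that ran most closely together, differed in it, since the Npy window held neither form.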

How the data were processed

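Striatal RNA of 18 mice was sequenced with a stranded total RNA kit. Per the labels and the study's methods, the authors used Trimmomatic for trimming and HISAT2 2.1.0 for alignment to GRCm38. They removed duplicated mappings, unmapped reads and poorly mapped reads. Reads per gene were counted with Subread 1.6.2, so the deposited values are raw counts. The deposited exon lengths are other values, in bases, used here for CPM per kilobase.

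Counts were tested in R 4.3.3 with edgeR 4.0.16 (TMM, filterByExpr, quasi-likelihood test, genotype as the only factor over 18 libraries, FDR 0.1), where the study used DESeq2. Adjusted p-values ran over all 20914 genes kept. CPM was computed after TMM scaling, and log2 CPM used a prior count of 2. Group values are means with SD over mice, and 95% intervals use the normal quantile of the standard error. Scripts were tested on simulated data.

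The members and gene lists were chosen with earlier results of these data known. All 9 members are named, with up to 4 genes per list and comparison that passed and the 3 genes of highest r for each tested member. Csnk2a2, Xist and the list genes that the study called in zQ175 against zQ175:CK2α’(±) are named as well. Other genes under this rule or on a list are not reported here. Gene spans equal those of GENCODE M21. Alternatives were DESeq2 1.42.0 with default settings, its size factors, no filter, the compared groups alone, a replicate block, an Xist covariate, a robust fit, FDR 0.05 and leaving out each mouse. Leaving out zQ175 replicates 1 and 5 together was chosen after seeing the data. Each label number names a separate mouse. The replicate numbers did not pair the samples.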

Additional observations from a re-analysis of the deposited data

Results flagged for a closer look

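Dixon's limit at the 95% level was checked in 27 sets of 5 mice, 1 set per gene in the WT, zQ175 and zQ175:CK2α’(±) groups. In 4 sets the gap of a mouse to its nearest neighbour passed it. Chance alone flags about 1 set in 20 of independent, normally spread values. These sets share libraries and some hold few reads, so 4 of 27 cannot be set against that rate. In zQ175 replicate 1, Sst was at 45.3 CPM, with the other 4 mice at 93.8 to 110 CPM. In the same library Th was at 11.4 CPM, with the others at 1.40 to 3.36 CPM. In WT replicate 1, Npy was at 26.7 CPM, with the others at 17.3 to 18.8 CPM. In zQ175 replicate 5, Cort was at 1.77 CPM, with the others at 0 to 0.431 CPM. No difference of effect between groups passed, since the interaction test called none of the 8 tested markers.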

How the results depend on the processing

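The count of markers past the threshold stayed at 0 in 123 of 124 alternatives over the 6 comparisons. The exception was the averaged comparison with no filter on low counts, where 1 marker passed, Pvalb. Where few genes of any kind passed, as in the interaction (1 of 20914), 0 markers was near certain in advance. The tally says little about the markers there. Over the alternatives other than leaving out 1 mouse, Pvalb in zQ175 against WT ran from -0.68 to -0.43. With the replicate number as a block it was -0.62, and 0 markers passed in every comparison. The numbers do not pair the mice, since same-number pairs correlated between -0.136 and 0.120, with 2 of 24 over 0.1, and a mouse correlated best with its own number in 5 of 48 cases. The block moved the calls over all genes from 230 to 98 in zQ175 against WT and from 1024 to 519 in the averaged comparison. FDR 0.05 ended the calls of Syt2, Satb1, Nos1ap and Sstr3, and in zQ175 against WT those of Adora2a, Penk, Ppp1r1b and Tbr1.

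Th in zQ175 against WT turned to -0.10 with the replicate block, -0.0738 with the Xist covariate and -0.48 without zQ175 replicates 1 and 5. Leaving out these 2 also turned zQ175 against zQ175:CK2α’(±) to -0.16 for Th and 0.0688 for Sst. When 1 mouse at a time was left out, changes of direction occurred within these ranges. In zQ175 against WT, Th ran from -0.69 to 0.29 and Vip from -0.0748 to 1.33. In zQ175 against zQ175:CK2α’(±), Th ran from -0.37 to 0.62 and Sst from -0.19 to 0.0598. Pvalb ran from -0.35 to 0.0063 in zQ175:CK2α’(±) against WT, and in CK2α’(±) against WT Pvalb ran from -0.0114 to 0.66 and Sst from -0.11 to 0.0620. The causes were not tested.

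Calls over all genes in zQ175 against WT ranged from 0 with only the groups compared to 855 with DESeq2, which called 0 markers, with 451 without the filter, 51 at FDR 0.05 and 0 without zQ175 replicates 1 and 5. FDR 0.05 left 469 in the averaged comparison. Calls ranged from 1 to 123 in zQ175:CK2α’(±) against WT and from 1 to 51 in zQ175 against zQ175:CK2α’(±). The range was 0 to 19 in CK2α’(±) against WT and in the interaction. Vip and Cort had 129 and 118 reads over all libraries. The biological coefficient of variation of Vip was 86.3%, against a trend of 67.5%, and how much of its error came from counting was not tested.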
